A study of Mus musculus with 18 samples.

Results

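The genes described are 34 of the lysosome, the acidic organelle in which cells digest what they have engulfed or no longer need, measured in the retina of albino BALB/cJ mice after bright light. They were looked up by gene symbol, and all 34 were found among the 23420 symbols of the deposited count files. They comprise 10 glycosidases and sulfatases, 4 lipid hydrolases including a thioesterase, 2 peptidases, 3 lumenal cofactors or carriers, 10 membrane proteins, 3 subunits of the vacuolar proton pump (V-ATPase) and the 2 transcription factors Tfeb and Tfe3. All 34 passed the filter on low counts and were tested among 15196 genes.

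The study compared 3 groups of 3 wild-type mice, aged 8 to 10 weeks and of both sexes per the study's methods. Naïve mice had no light and no treatment. Vehicle mice were exposed to white light of 15000 lux for 1 h and received daily intraperitoneal DMSO from the day before the light. TD139 mice had the same exposure and daily injections of 15 mg/kg TD139, an inhibitor of the sugar-binding protein galectin-3, dissolved in DMSO. Retinas were taken 4 days after light, and each library came from an individual mouse. Each mouse gave 1 whole-retina RNA library, sequenced in 2 runs that were summed, with 26171887 to 30201517 reads on genes. No unexposed mice given TD139 or DMSO were analysed here, so light and the injections cannot be told apart in the comparison with naïve mice. In whole-retina RNA, fewer cells of a type and less RNA per cell cannot be told apart.

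Lysosomal hydrolases are made in the endoplasmic reticulum, carry a mannose 6-phosphate tag to the lysosome and work at the low pH that the V-ATPase maintains. The membrane is lined by heavily glycosylated proteins such as Lamp1 and Lamp2. The transcription factors Tfeb and Tfe3 bind short E-box elements around CACGTG near the starts of many lysosomal genes. In the retina, microglia, macrophages and the pigment epithelium are known for their high phagocytic and lysosomal load.

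The E-box form TCACGTG was searched on both strands in the 250 bases before each RefSeq gene start (build GRCm38.p6). A start was listed for 31 of the 34 members, not for Npc1, Asah1 and Atp6v1b2. The element was present in 7 of the 31 members (22.6%), Lamp1, Glb1, Naglu, Lgmn, Gla, Cln3 and Mcoln1, and in 3.58% of the 27025 genes of the table. The shorter CACGTG occurred in the same 7 members and in 6.86% of all genes. The longer element GAGGAAGT, a form bound by the myeloid factor PU.1, was found in 1 member, Gla (3.23% of members, 2.79% of all genes). A match is a run of letters, not a measured binding site. Lamp1 and Glb1 show promoters with the element, and Gusb and Cd63 show promoters without it from the members with the lowest adjusted p after light. Each run of 250 bases reads 5′ to 3′ on the strand of the gene, with the 7-letter element in capitals on whichever strand it lies. They lie at chr8:13158911-13159160 (plus strand, Lamp1), chr9:114400828-114401077 (plus, Glb1), chr5:130003050-130003299 (minus, Gusb) and chr10:128909095-128909344 (plus, Cd63).
Lamp1: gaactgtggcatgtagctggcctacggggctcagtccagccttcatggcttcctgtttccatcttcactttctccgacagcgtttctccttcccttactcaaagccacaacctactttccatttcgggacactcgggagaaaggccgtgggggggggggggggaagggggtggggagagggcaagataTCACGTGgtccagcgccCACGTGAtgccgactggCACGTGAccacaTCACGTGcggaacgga
Glb1: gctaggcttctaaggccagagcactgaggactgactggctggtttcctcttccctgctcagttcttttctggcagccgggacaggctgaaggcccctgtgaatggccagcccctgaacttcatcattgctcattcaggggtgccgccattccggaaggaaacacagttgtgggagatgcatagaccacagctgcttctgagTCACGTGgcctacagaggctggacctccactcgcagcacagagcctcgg
Gusb: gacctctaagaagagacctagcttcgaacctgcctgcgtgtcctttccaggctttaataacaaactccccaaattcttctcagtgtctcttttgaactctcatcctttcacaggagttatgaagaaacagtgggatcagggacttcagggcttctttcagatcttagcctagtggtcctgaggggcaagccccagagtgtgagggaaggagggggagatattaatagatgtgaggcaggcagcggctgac
Cd63: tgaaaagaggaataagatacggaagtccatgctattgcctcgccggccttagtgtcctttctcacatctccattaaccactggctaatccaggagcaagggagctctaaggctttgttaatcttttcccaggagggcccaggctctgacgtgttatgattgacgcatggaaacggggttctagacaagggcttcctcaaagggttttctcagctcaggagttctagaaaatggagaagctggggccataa

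Some libraries stood apart in ways that touch the results. The summed level of 5 lens and cornea markers was 6882 CPM (counts scaled to a common library size) in vehicle mouse 2 and 0.557 to 281 in the other 8 libraries. Rod markers, which identify the tissue, were high in all libraries, at 39729 to 78524 CPM in sum over 8 genes. The 15 microglia markers summed to 40.3 to 46.6 CPM in naïve, 224 to 449 in vehicle and 136, 34.0 and 30.1 in TD139 mice 1, 2 and 3, so TD139 mouse 1 stood above the other mice of its group. Y-linked and Xist RNA marked 1 male and 2 female mice in the naïve group, and 2 male and 1 female mouse in each light-exposed group. In TD139 mice, long transcripts read higher than short ones across the retina (Spearman's rho of the log2 fold change against transcript length 0.49 over 15068 genes against vehicle and 0.60 against naïve, as a description). Against naïve, vehicle gave a rho of -0.10. Reads that fell on no gene made up 21.3% to 22.8% in the TD139 libraries and 16.5% to 19.9% in the other 6, and the part of either measure in the TD139 results was not tested beyond an adjustment for length and GC content.

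Light with vehicle raised 11 of the 34 genes and lowered none past the test. Among the called genes the largest rises were in the membrane protein Laptm5, the glycosidase Gusb, the cofactor Grn and the tetraspanin Cd63, between 2.21-fold and 7.43-fold. Each comparison was fitted with edgeR's quasi-likelihood test on all 9 mice, and a gene was called at a Benjamini-Hochberg adjusted p under 0.05 over all 15196 genes. Of those, 4.91% were called higher and 2.89% lower, against 32.4% and 0% of the members. In the lower direction no member reached an unadjusted p under 0.05, and DESeq2 also called none, with 13 members higher, the 11 and Hexa and Gpnmb, beside 1355 higher and 1063 lower over all genes. Where no tool is named, a call or a test passed refers to edgeR. The median log2 fold change was 0.25 over the members and -0.0018 over all tested genes. In 20 members all vehicle mice lay above all naïve mice, and in 2, Gla and Mcoln1, all lay below. Across all genes such a separation occurred in 16.7% and 16.6%.

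TD139 mice had lower levels than vehicle mice in 16 of the 34 genes and a higher level in 1, the sterol transporter Npc1. Among the called genes the lowest ratios to vehicle were those of Laptm5, Cd63, Grn and Gusb, between 0.245 and 0.461. Gpnmb, which edgeR called in neither comparison, had folds of 3.11 after light and 0.277 with TD139. Among all genes tested, 16.2% were called lower and 17.2% higher in this comparison. The member share was 47.1% lower and 2.94% higher. DESeq2 called 20 members lower, the 16 and Neu1, Lipa, Atp6ap1 and Gpnmb, and Npc1 higher, beside 2839 lower and 3024 higher over all genes. The median log2 fold change was -0.31 for the members and -0.016 for all tested genes. All TD139 mice lay below all vehicle mice in 20 members and above them in 4, where the share over all genes was 25.4% and 26.0%. With a cut-off of 2 on the log2 scale besides the adjusted p, Laptm5 alone passed, higher in vehicle than naïve (1.24% of all genes) and lower in TD139 than vehicle (1.53%). The latter, at -2.03, was just past the cut-off and stood at -1.85 with length and GC adjusted for and at -3.09 to -1.68 when 1 mouse was left out. The vehicle mice are shared by both comparisons, so the changes against them are not independent.

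Against the naïve mice, TD139 mice differed in 1 member, Lamp2, which was higher. Over all genes 2.72% were called higher and 2.38% lower. These calls were not stable, with 0 genes called in 5 of the 9 fits that left out 1 mouse and 1523 called higher without naïve mouse 3. When length and GC were adjusted for, edgeR called 0 genes in either direction, with 1146 higher and 1164 lower at an unadjusted p under 0.05. No member was called lower by edgeR, 3 were lower at an unadjusted p under 0.05, and DESeq2 called 2 lower, Neu1 and Atp6v0d1, and 2 higher, Lamp2 and Lipa, beside 1157 lower and 1429 higher over all genes. The median was -0.082 on the log2 scale, and -0.0023 over all tested genes.

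**Figure D1:**
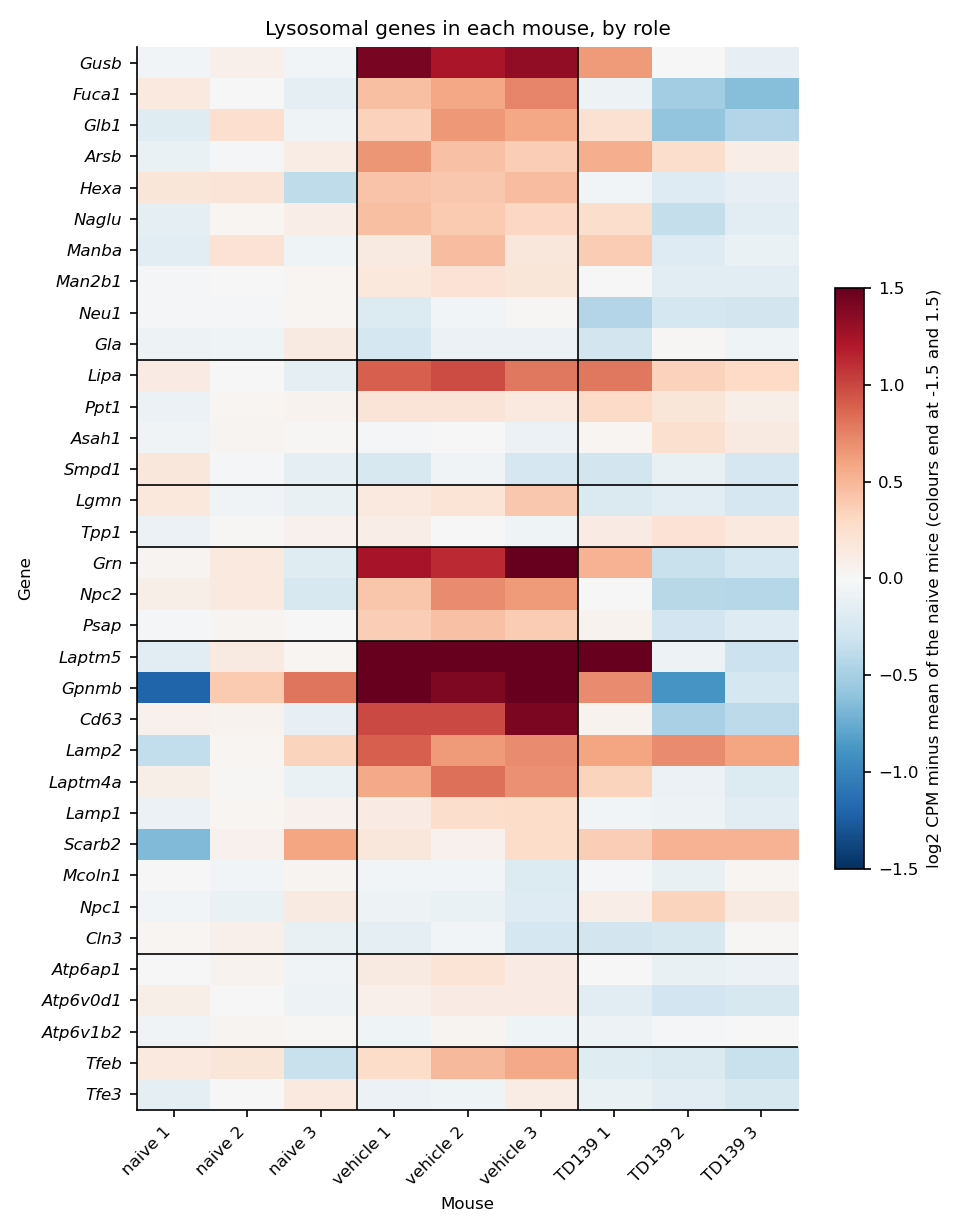
Log2 CPM of each of the 34 genes (rows, grouped by role with black lines) in each of the 9 mice (columns), minus the mean of the 3 naïve mice, in red where higher and blue where lower. The vehicle columns are red for Gusb, Grn, Laptm5, Gpnmb and Cd63, and TD139 mouse 1 keeps part of that colour for Gusb, Grn, Laptm5 and Gpnmb, which TD139 mice 2 and 3 do not.

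Glycosidases remove sugars from glycoproteins, glycolipids and glycosaminoglycans. Of the 10 genes in this group, 3 rose with light and vehicle and 6 were lower in TD139 than in vehicle mice, with medians of 0.40 and -0.37 on the log2 scale. Gusb, the β-glucuronidase, stood at 8.64, 9.38 and 8.61 CPM in the naïve mice, 23.8, 20.8 and 22.3 in the vehicle mice and 13.9, 8.87 and 8.14 in the TD139 mice. The vehicle mice lay above all 6 others, and TD139 mouse 1 lay between the groups. The log2 fold change was 1.33 (SE 0.19, adjusted p = 0.013) for vehicle against naïve and -1.12 (SE 0.19, adjusted p = 0.0057) for TD139 against vehicle. Fuca1, the α-fucosidase, read 62.6, 56.3 and 50.9 CPM in naïve, 76.9, 84.3 and 93.5 in vehicle and 53.5, 39.2 and 36.3 in TD139 mice. All vehicle mice exceeded the rest, and TD139 mice 2 and 3 were below every naïve mouse. Fuca1 rose by 0.58 (SE 0.15, adjusted p = 0.038) and was lower by a log2 fold change of -0.98 (SE 0.15, adjusted p = 0.0050) with TD139.

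Arsb, the arylsulfatase that desulfates dermatan and chondroitin sulfate, was at 30.3, 32.1 and 35.0 CPM in naïve, 51.2, 44.1 and 41.8 in vehicle and 47.4, 38.8 and 34.7 in TD139 mice. It rose with light (0.49, SE 0.13, adjusted p = 0.044), and its TD139 mice overlapped both other groups (TD139 against vehicle -0.18, SE 0.13, adjusted p = 0.29). Another 4 glycosidases passed edgeR's test in the comparison of TD139 with vehicle and not after light, where DESeq2 called Hexa higher. Hexa, the α subunit of β-hexosaminidase, gave 68.8, 69.5 and 46.7 CPM in naïve, 81.4, 80.5 and 83.9 in vehicle and 58.8, 53.1 and 55.7 in TD139 mice. Its vehicle mice agreed closely and were the highest, and naïve mouse 3 was the lowest of all (vehicle against naïve 0.41, SE 0.14, adjusted p = 0.083, and TD139 against vehicle -0.55, SE 0.14, adjusted p = 0.013). Glb1, the β-galactosidase, read 11.8, 15.9 and 12.7, then 16.9, 21.1 and 20.1, then 15.6, 8.84 and 9.84 CPM in the same order of groups. TD139 mice 2 and 3 were below every naïve mouse and mouse 1 was near the highest naïve value (0.52, SE 0.21, adjusted p = 0.14, and -0.76, SE 0.21, adjusted p = 0.021).

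Naglu, the N-acetylglucosaminidase of heparan sulfate breakdown, was at 17.3, 19.4 and 20.3 CPM in naïve, 25.8, 24.8 and 23.5 in vehicle and 22.7, 14.8 and 16.9 in TD139 mice. TD139 mouse 1 lay just below the vehicle mice (0.38, SE 0.16, adjusted p = 0.14, and -0.45, SE 0.16, adjusted p = 0.046). Man2b1, the lysosomal α-mannosidase, varied little, with 52.9, 53.4 and 54.9 CPM in naïve, 59.7, 62.6 and 61.2 in vehicle and 53.6, 47.9 and 47.7 in TD139 mice. The vehicle mice did not overlap either group, and the differences were small (0.19, SE 0.087, adjusted p = 0.19, and -0.30, SE 0.087, adjusted p = 0.023). Neu1, the sialidase, gave 81.5, 82.0 and 84.7, then 71.7, 80.5 and 84.0, then 60.8, 69.1 and 68.5 CPM, with all TD139 mice below all others and no edgeR adjusted p under 0.05, while DESeq2 called it lower than in vehicle and naïve mice (TD139 against vehicle -0.25, SE 0.093, adjusted p = 0.057). Gla and Manba, which remove α-galactose and β-mannose, had adjusted p of 0.42 to 0.91 over the 3 comparisons.

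Among the lipid hydrolases, 1 of 4 passed. Lipa, the acid lipase that splits cholesteryl esters and triglycerides, was at 14.4, 13.3 and 12.1 CPM in naïve, 24.6, 26.1 and 22.9 in vehicle and 23.0, 16.8 and 16.3 in TD139 mice. All 6 light-exposed mice exceeded the naïve mice, and TD139 mouse 1 lay within the vehicle range. Lipa rose by 0.89 (SE 0.15, adjusted p = 0.017) after light, TD139 against vehicle was -0.39 (SE 0.15, adjusted p = 0.068), and TD139 against naïve 0.50 (SE 0.15, adjusted p = 0.069). Ppt1, the palmitoyl-protein thioesterase, read 119, 128 and 131 CPM in naïve, 144, 144 and 139 in vehicle and 153, 143 and 133 in TD139 mice. Its light-exposed mice were all above the naïve mice by a small margin (0.18, SE 0.084, adjusted p = 0.20). Smpd1, the acid sphingomyelinase, gave 187, 163 and 152, then 142, 161 and 139.8, then 138, 155 and 141 CPM, with overlap of all groups (vehicle against naïve -0.18, SE 0.10, adjusted p = 0.27). Asah1, the acid ceramidase, had log2 fold changes of -0.031 to 0.17 and adjusted p of 0.17 to 0.85.

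Of the 2 peptidases, Lgmn, the asparaginyl endopeptidase that processes cathepsins, was at 305, 263 and 252 CPM in naïve, 302, 313 and 361 in vehicle and 233, 244 and 228 in TD139 mice. TD139 mice were below both other groups, and naïve mouse 1 lay within the vehicle range. Lgmn was not called after light (0.25, SE 0.10, adjusted p = 0.15) and was lower with TD139 than vehicle (-0.47, SE 0.10, adjusted p = 0.0095). Tpp1, the tripeptidyl peptidase, read 140.1, 151 and 156, then 159.9, 148 and 142, then 163, 174 and 164 CPM. Its TD139 mice were the highest without passing the test (TD139 against vehicle 0.15, SE 0.084, adjusted p = 0.18).

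All 3 lumenal cofactors passed in both comparisons. Grn, the progranulin precursor of lysosomal granulins, stood at 69.8, 75.0 and 59.9 CPM in naïve, 160.4, 148 and 194 in vehicle and 97.3, 53.7 and 56.7 in TD139 mice. TD139 mice 2 and 3 were below every naïve mouse, and mouse 1 was between naïve and vehicle. The changes were 1.29 (SE 0.22, adjusted p = 0.018) and -1.27 (SE 0.22, adjusted p = 0.0060). Npc2, the soluble cholesterol carrier, gave 62.8, 65.3 and 49.8 CPM in naïve, 78.7, 96.6 and 91.9 in vehicle and 59.4, 44.0 and 43.7 in TD139 mice. Vehicle mice were the highest and the other groups overlapped (0.59, SE 0.15, adjusted p = 0.037, and -0.86, SE 0.15, adjusted p = 0.0057). Psap, which is cleaved into the saposins that present sphingolipids to hydrolases, was the most abundant member per transcript length in every group. Psap read 959.9, 1004 and 971 CPM in naïve, 1263, 1330.1 and 1269.9 in vehicle and 1017, 804 and 857 in TD139 mice. TD139 mouse 1 exceeded every naïve mouse and the other TD139 mice were below them (0.40, SE 0.10, adjusted p = 0.041, and -0.53, SE 0.10, adjusted p = 0.0065).

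**Figure D2:**
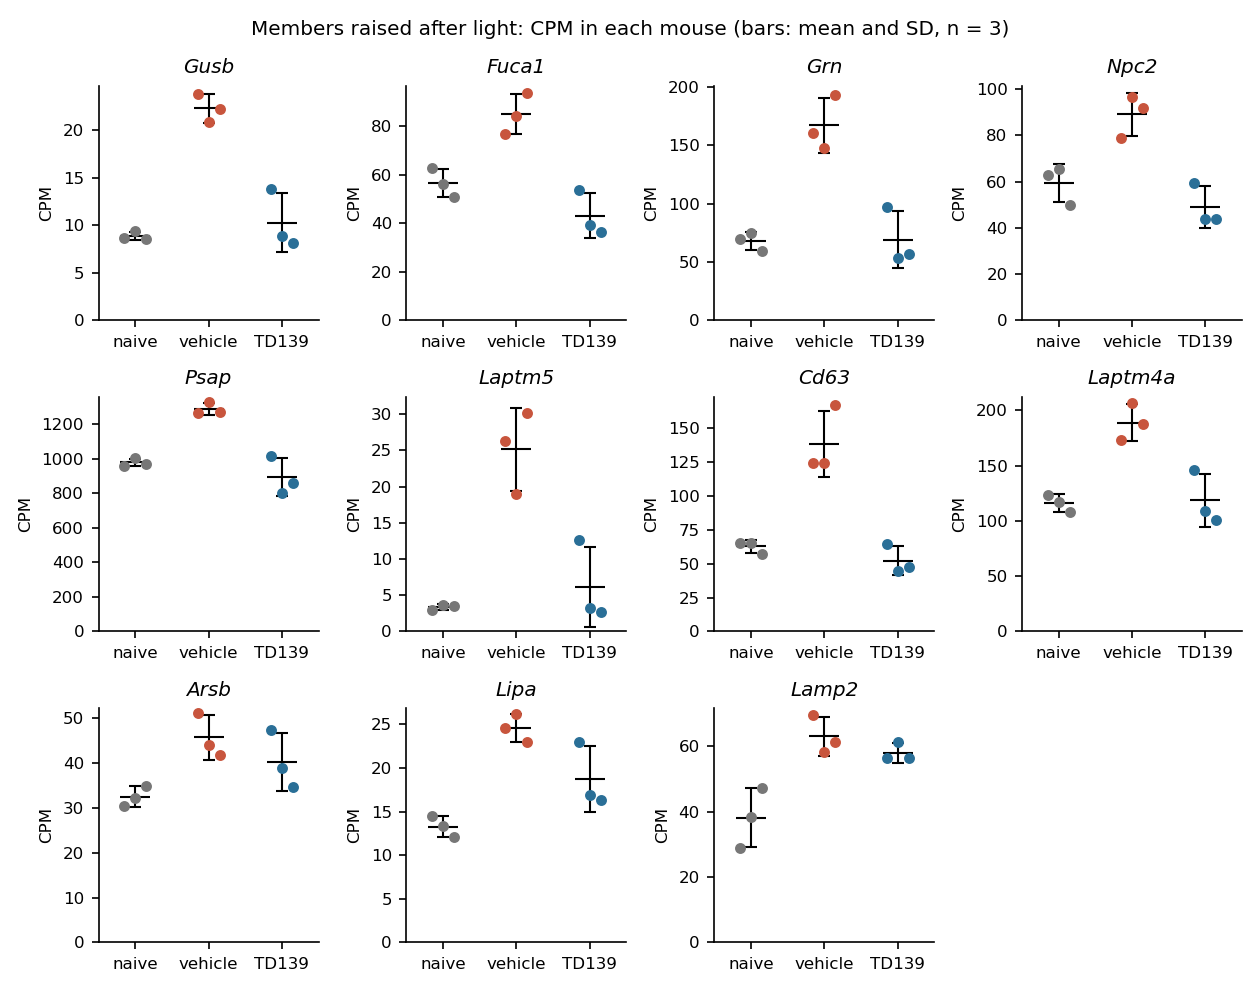
CPM (y axis, from 0) of the 11 genes that were higher in vehicle than naïve mice, with a point for each mouse and the mean and SD of each group (n = 3). For Gusb to Laptm4a TD139 mouse 1 is the highest of its group, and the fitted fold of TD139 over naïve runs from 0.76 (Fuca1) to 1.82 (Laptm5). For Arsb, Lipa and Lamp2 the TD139 mean lies between the naïve and vehicle means.

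Membrane proteins held the member with the largest change. Of 10 genes, 4 rose after light, 4 were lower with TD139 than vehicle and 1 higher. Laptm5, a transmembrane protein of the lysosome, was at 3.00, 3.69 and 3.45 CPM in naïve, 26.3, 18.9 and 30.2 in vehicle and 12.6, 3.20 and 2.69 in TD139 mice. TD139 mice 2 and 3 lay at the naïve level and mouse 1 between the groups. Laptm5 rose by 2.89 (SE 0.57, adjusted p = 0.027) and was lower with TD139 by a log2 fold change of -2.03 (SE 0.54, adjusted p = 0.023). The related Laptm4a, which is broadly expressed, read 124, 117 and 108, then 173, 207 and 188, then 146, 109 and 101 CPM. The vehicle mice exceeded all others (0.70, SE 0.13, adjusted p = 0.021, and -0.67, SE 0.13, adjusted p = 0.0069). Cd63, a tetraspanin of late endosomes and exosomes, gave 65.5, 65.2 and 57.5 CPM in naïve, 124, 124 and 167 in vehicle and 64.8, 44.6 and 47.7 in TD139 mice. TD139 mice 2 and 3 were below all naïve mice (1.14, SE 0.16, adjusted p = 0.013, and -1.40, SE 0.16, adjusted p = 0.0050).

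Lamp1 and Lamp2 are the main glycoproteins of the membrane, and their difference was not tested. Lamp1 was at 249, 270.2 and 278 CPM in naïve, 289, 318 and 320.2 in vehicle and 257, 251 and 239 in TD139 mice. The vehicle mice were the highest by a small margin (0.22, SE 0.089, adjusted p = 0.14, and -0.31, SE 0.089, adjusted p = 0.022). Lamp2, on the X chromosome, read 29.0, 38.3 and 47.3 CPM in naïve, 69.6, 58.2 and 61.2 in vehicle and 56.2, 61.4 and 56.3 in TD139 mice. Naïve mice spread widely, and all 6 light-exposed mice exceeded them. Lamp2 rose by 0.72 (SE 0.15, adjusted p = 0.025) after light and stood at -0.12 (SE 0.15, adjusted p = 0.56) for TD139 against vehicle. Once length and GC were adjusted for, the latter was -0.53 (adjusted p = 0.023), where Lamp1 was at -0.13 (adjusted p = 0.26). Lamp2 was higher in TD139 than naïve mice (0.60, SE 0.15, adjusted p = 0.049). That call was lost under the adjustment (0.24, adjusted p = 0.42) and held in 2 of the 9 fits that left out 1 mouse. Npc1, the membrane partner of Npc2, was at 111, 106 and 125 CPM in naïve, 108, 106 and 99.6 in vehicle and 122, 143 and 125 in TD139 mice, which exceeded all vehicle mice (TD139 against vehicle 0.32, SE 0.10, adjusted p = 0.027, and 0.069, adjusted p = 0.55, once length and GC were adjusted for).

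The other membrane proteins did not pass edgeR's test, while DESeq2 called Gpnmb higher in vehicle than naïve and lower in TD139 than vehicle mice. Gpnmb, a glycoprotein of melanosomes and phagocytic cells that is named here after its values were seen, had the widest spread among naïve mice, at 10.9, 33.0 and 44.0 CPM in naïve, 106, 66.5 and 101 in vehicle and 41.2, 13.6 and 21.0 in TD139 mice. The vehicle mice lay above all others, and the coefficient of variation was 57.4% among naïve mice (1.64, SE 0.59, adjusted p = 0.13, and -1.85, SE 0.59, adjusted p = 0.051). The summed level of 10 pigment epithelium and melanocyte markers was 140.3 to 273 CPM in naïve, 231 to 495 in vehicle and 133 to 218 in TD139 mice, and its part in Gpnmb was not tested. Scarb2, the receptor that carries glucocerebrosidase to the lysosome, also spread among naïve mice (26.9 to 64.0 CPM, coefficient of variation 41.0%). Mcoln1, the TRPML1 cation channel, and Cln3 had adjusted p of 0.34 to 0.90 over the 3 comparisons.

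Of the 3 V-ATPase subunits, 1 passed edgeR's test, in TD139 against vehicle. Atp6v1b2, of the ATP-splitting domain, was at 639, 682 and 674 CPM in naïve, 634, 683 and 633 in vehicle and 629.7, 654 and 668 in TD139 mice, with all groups overlapping (adjusted p = 0.83 to 0.99 in the 3 comparisons). Atp6ap1, an accessory subunit, read 304, 313 and 291, then 332, 348 and 329.6, then 302, 279.7 and 284 CPM. Its vehicle mice lay above the others without passing edgeR's test, while DESeq2 called it lower in TD139 than vehicle (0.15, SE 0.084, adjusted p = 0.26, and -0.22, SE 0.084, adjusted p = 0.061). Atp6v0d1, of the membrane domain, gave 295, 276 and 263 CPM in naïve, 294, 303 and 303 in vehicle and 247, 227 and 236 in TD139 mice, and its TD139 mice were below both other groups (TD139 against vehicle -0.34, SE 0.085, adjusted p = 0.013). With length and GC adjusted for, that value turned to 0.019 (adjusted p = 0.86).

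Of the transcription factors, Tfeb passed in TD139 against vehicle, and the difference between Tfeb and Tfe3 was not tested. Tfeb was at 17.4, 17.9 and 12.5 CPM in naïve, 19.0, 22.1 and 23.4 in vehicle and 13.9, 13.5 and 12.5 in TD139 mice. Vehicle mice were the highest (0.43, SE 0.16, adjusted p = 0.11), and TD139 mice were lower than vehicle (-0.69, SE 0.16, adjusted p = 0.010). With length and GC adjusted for, the latter value was -0.37 (adjusted p = 0.073) and the call was lost. Tfe3 read 59.8, 65.7 and 72.8, then 62.1, 63.1 and 70.9, then 61.3, 58.4 and 55.6 CPM, with adjusted p of 0.23 to 0.93. These are RNA levels, and the activity of both factors is known to be set mainly by phosphorylation and nuclear entry, which were not measured.

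Members with and without the E-box TCACGTG were set side by side after their values were seen, so no test was made. None of the 7 with it was called higher in vehicle than naïve by edgeR or DESeq2, and 11 of the 24 without it were by edgeR and 13 by DESeq2. At an unadjusted p under 0.05, 4 of the 7 and 14 of the 24 were higher, which are similar shares. Over all 15196 genes, 4192 had such a p in either direction. By edgeR, 4.91% of all genes were called higher after light and 16.2% lower in TD139 against vehicle. DESeq2 called 1355 genes higher and 2839 lower there. After light, the medians of the 7 and the 24 were 0.22 and 0.42 on the log2 scale. In TD139 against vehicle, 4 of the 7 and 12 of the 24 were called lower by edgeR (4 and 16 by DESeq2), with medians of -0.31 and -0.37. Of these calls, 0 of the 4 and 9 of the 12 remained when length and GC were adjusted for in edgeR.

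**Figure D3:**
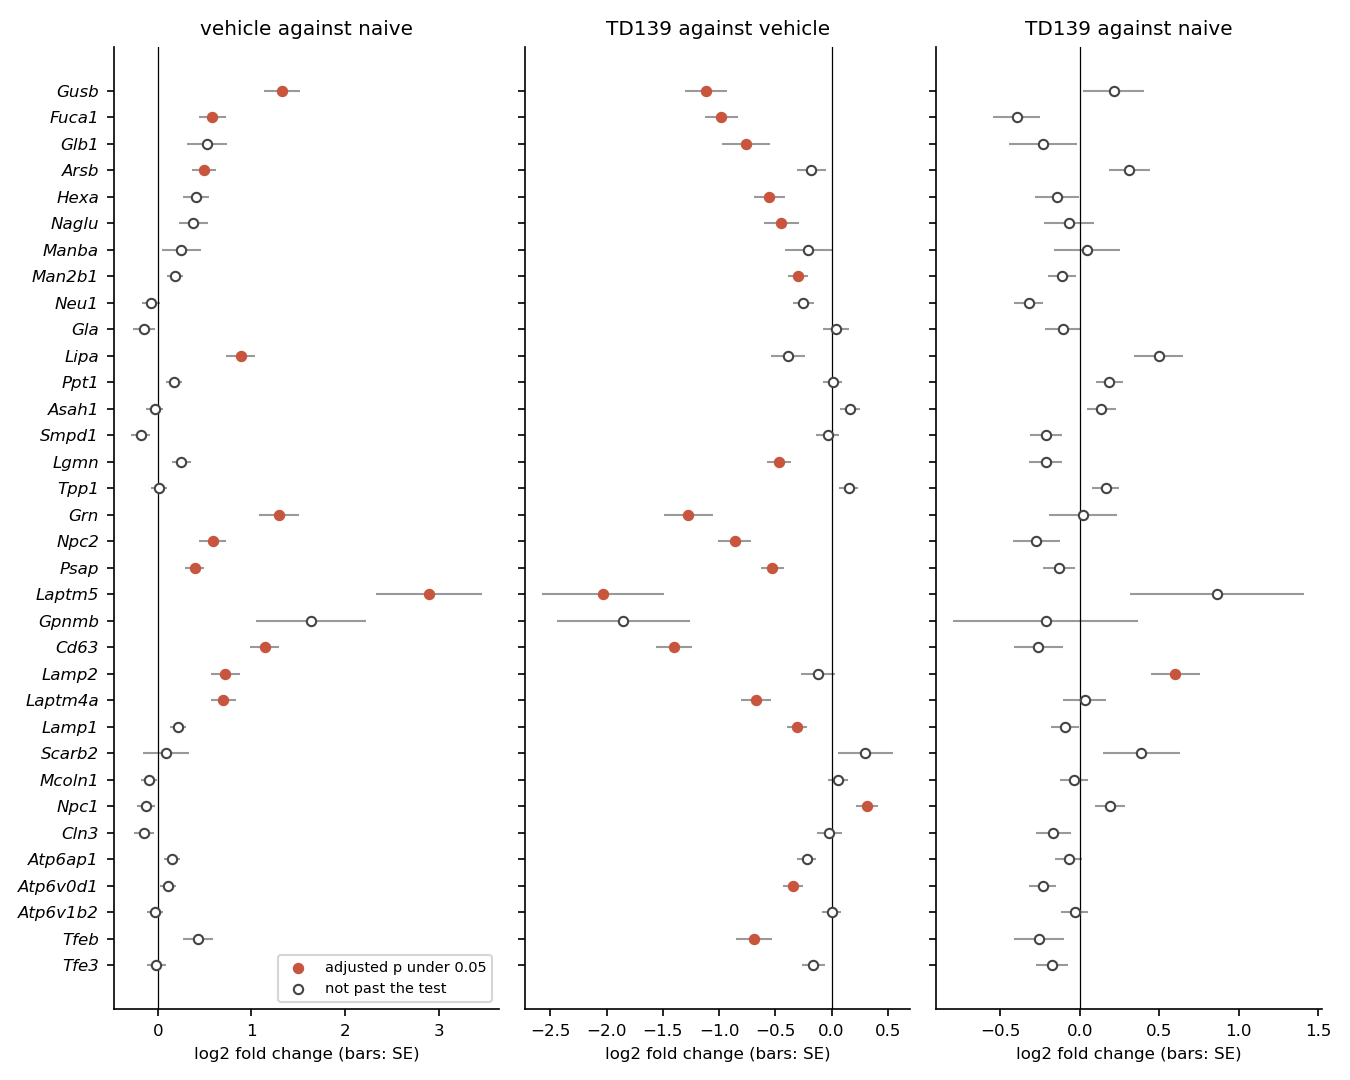
Log2 fold change (x axis) with its SE of each of the 34 genes (rows, by role) in the 3 comparisons, filled red where the adjusted p was under 0.05. The left panel has 11 filled points, all above 0, the middle panel 16 below 0 and Npc1 above, and the right panel Lamp2 alone.

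Of the 11 genes raised after light, 8 were also lower in TD139 than vehicle mice (72.7% of the raised genes and 50.0% of the 16 lowered ones, where the same shares over all tested genes were 79.8% and 24.2%), namely Gusb, Fuca1, Grn, Npc2, Psap, Laptm5, Laptm4a and Cd63. Both calls use the vehicle mice. The other 3, Lamp2, Lipa and Arsb, were not shown to differ in response from the 8, since that difference was not tested. In the TD139 group, mouse 1 was the highest for 10 of the 11 raised genes and 15 of the 16 lowered ones, and for 22 of all 34. The median of the 11 raised genes against the naïve mean was 0.52 in TD139 mouse 1, -0.089 in mouse 2 and -0.20 in mouse 3, and 0.73 to 0.89 in vehicle mice. Since the 11 were picked for being higher in these same vehicle mice, the height of the vehicle medians follows from the selection. Over all 34 members the median was 0.037, -0.14 and -0.16 in TD139 mice 1, 2 and 3, and 0.18 to 0.32 in vehicle mice. The microglia markers of TD139 mouse 1 also exceeded those of mice 2 and 3, as given above.

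**Figure D4:**
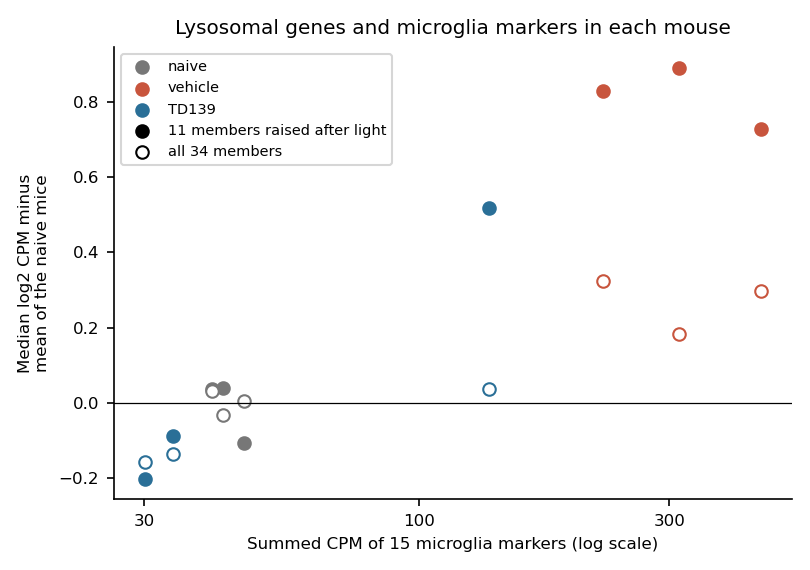
Median log2 CPM over the 11 raised genes (filled) and all 34 genes (open) minus the naïve mean (y axis), against the summed CPM of 15 microglia markers (x axis, log scale), for each of the 9 mice coloured by group. The vehicle mice are at the upper right, TD139 mouse 1 lies between, and TD139 mice 2 and 3 lie at or below the naïve mice. The filled points use genes picked for being higher in these same vehicle mice.

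Some microglia markers also changed in both comparisons. Of 15 markers, 7 were higher in vehicle than naïve mice and 9 lower in TD139 than vehicle mice, with medians of 2.07 and -1.77 on the log2 scale. Of 7 monocyte and macrophage markers measured, 4 were tested, 1 was higher and 2 were lower. The sum of the 7 was 2.82 to 4.26 CPM in naïve, 49.1 to 103 in vehicle and 2.68 to 29.1 in TD139 mice. Most of the vehicle sum was the single gene Lyz2 (92.5, 44.2 and 94.0 CPM). Lyz2 was not called after light (adjusted p = 0.074) or in TD139 against vehicle (adjusted p = 0.13). Ly6c2 was not called after light either (0.22, adjusted p = 0.81). Müller glia and astrocyte markers were higher after light in 4 of 7, and rod markers lower in 5 of 8. In TD139 against vehicle, 3 of the 7 were lower and 4 of the 8 rod markers higher. The part of any of these cells in the lysosomal genes was not tested.

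With each library adjusted for the length and GC content of its transcripts, 11 members were lower in TD139 than vehicle mice, and 9.72% of all genes were (9.98% higher). Of the 16, 9 stayed called, the 8 genes raised after light and Man2b1. The calls of Lamp1, Hexa, Glb1, Naglu, Lgmn, Tfeb and Atp6v0d1 were lost (adjusted p = 0.058 to 0.86). Their log2 fold changes were then -0.13, -0.23, -0.57, -0.20, -0.23, -0.37 and 0.019 in that order. Lamp2 and Lipa became lower (-0.53, adjusted p = 0.023, and -0.49, adjusted p = 0.049). Npc1 was no longer called higher (0.069, adjusted p = 0.55), and Mcoln1 was (0.38, adjusted p = 0.023). The 16 lowered genes had a median transcript length of 2368 bases and the other 18 members one of 3188. All 11 rises after light remained under this adjustment, while Lamp2 was no longer higher in TD139 than naïve mice (0.24, adjusted p = 0.42).

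**Figure D5:**
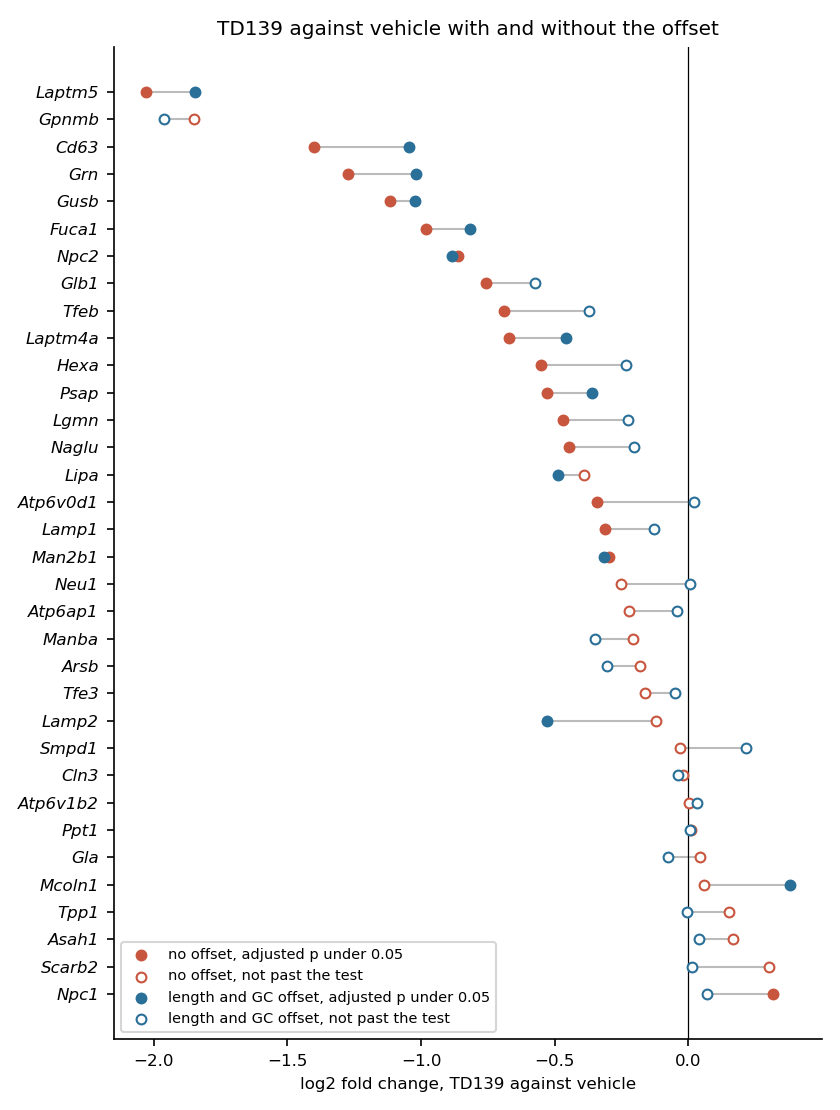
Log2 fold change of TD139 against vehicle (x axis) for each of the 34 genes (rows), without (red) and with (blue) the adjustment for length and GC, filled where the adjusted p was under 0.05. Cd63, Grn, Gusb, Fuca1 and Npc2 stay filled and far below 0, while Hexa, Tfeb, Lgmn, Naglu, Lamp1 and Atp6v0d1 move toward 0 and open.

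Which calls after light held depended on the mouse left out. None of the 11 held in all 9 fits that left out 1 mouse. Without naïve mouse 2 no member passed in edgeR, though 14 were higher at an unadjusted p under 0.05, and 1 gene of all tested was called higher. Without naïve mouse 1 or 3, 3 and 4 members passed, without vehicle mouse 1, 2 or 3, 5, 7 and 2, and without TD139 mouse 1, 2 or 3, 12, 10 and 10. The genes called higher over the whole table numbered 746 with all mice, 62 and 140 without naïve mouse 1 or 3, 219, 620 and 65 without vehicle mouse 1, 2 or 3, and 1167, 665 and 622 without TD139 mouse 1, 2 or 3, so the calls were lost across all genes and not in the members alone. Without vehicle mouse 2, the library with lens RNA, the 7 were Lamp2, Gusb, Grn, Lipa, Laptm5, Laptm4a and Cd63. Gusb and Cd63 lost their call only without naïve mouse 2 (adjusted p = 0.065 for each), and Lipa without naïve mouse 2 or vehicle mouse 3 (adjusted p up to 0.070). For the others the adjusted p rose to between 0.068 (Grn) and 0.14 (Arsb). All 11 stayed above 0 in the 9 fits. The log2 fold changes ranged from 1.29 to 1.38 for Gusb, 1.18 to 1.38 for Grn, 0.98 to 1.22 for Cd63, 0.83 to 0.96 for Lipa, 2.74 to 3.06 for Laptm5 and 0.63 to 0.77 for Laptm4a. They ranged from 0.57 to 0.91 for Lamp2, 0.48 to 0.68 for Npc2, 0.51 to 0.67 for Fuca1, 0.41 to 0.56 for Arsb and 0.37 to 0.43 for Psap.

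In TD139 against vehicle, 8 calls held in all 9 fits, Gusb, Npc2, Psap, Grn, Lgmn, Laptm4a, Cd63 and Fuca1. Without TD139 mouse 1 the members called lower were 19, without mouse 2 they were 9 and without mouse 3 they were 8. Without vehicle mouse 1, 2 or 3 they were 16, 12 and 11. Over all genes the lower calls numbered 2455 with all mice, 2931, 759 and 867 without TD139 mouse 1, 2 or 3, and 2167, 1844 and 1286 without vehicle mouse 1, 2 or 3. Laptm5 lost its call without vehicle mouse 3 or TD139 mouse 2 or 3 (adjusted p up to 0.083), and its log2 fold change was -3.09 without TD139 mouse 1. Tfeb lost its call without TD139 mouse 3 (adjusted p = 0.051), and Hexa and Atp6v0d1 without TD139 mouse 2 or 3 (up to 0.062 for each). Lamp1, Glb1, Man2b1 and Npc1 lost theirs without vehicle mouse 2 or 3 or TD139 mouse 2 or 3 (up to 0.083, 0.093, 0.089 and 0.12), and Naglu in 6 of the 9 fits (up to 0.17). Lamp2 was higher in TD139 than naïve mice in 2 of 9 fits, without naïve mouse 3 or TD139 mouse 1, and its adjusted p reached 0.17 in the others.

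Per transcript length, levels spanned a wide range. In TPM (computed from the counts, scaled by transcript length), Psap was at 922 ± 57.5 (SD, n = 3) in naïve, 1246 ± 19.8 in vehicle and 924 ± 132 in TD139 mice. Atp6v1b2, Atp6v0d1 and Atp6ap1 followed in naïve mice at 590 ± 47.3, 426 ± 4.03 and 346 ± 16.4, and the last of these overlapped Lgmn (342 ± 17.7). At the other end were Gusb (8.27 ± 0.617), Manba (3.91 ± 0.639) and Laptm5 (3.26 ± 0.466). In vehicle mice Laptm5 reached 25.0 ± 6.48 and moved from the last place to place 27 of 34.

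Other genes of the pathway were taken from 7 further lists, with 155 of 165 genes tested. Of these, 17 were higher and 3 lower in vehicle than naïve mice, and 16 were higher and 40 lower in TD139 than vehicle mice. The higher and lower calls with TD139 were 10.3% and 25.8% of the 155, beside 17.2% and 16.2% of all genes, and after light all genes gave 4.91% and 2.89%. With length and GC adjusted for, 9 were higher and 27 lower with TD139, where all genes gave 9.98% and 9.72%, and after light 24 were higher and 8 lower, where all genes gave 7.69% and 6.07%. Of the lower calls with TD139 then, 8 were cathepsins, 10 other hydrolases, 3 other membrane proteins, 3 V-ATPase subunits, 2 autophagy genes and 1 a gene of enzyme sorting. The cathepsins, the main lysosomal proteases, had the largest share called of the 7 lists, with 8 of 12 higher after light and 8 lower with TD139. Ctsd rose by 1.47 (SE 0.27, adjusted p = 0.022), Ctsb by 0.92 (SE 0.15, adjusted p = 0.013) and Ctsl by 1.37 (SE 0.26, adjusted p = 0.023). With TD139 they were lower than vehicle by log2 fold changes of -1.51, -0.86 and -1.61. Among 31 other hydrolases and activators, 4 rose, among them Man2b2 (0.69, SE 0.14, adjusted p = 0.022) and Dnase2a (1.30, SE 0.22, adjusted p = 0.017). Arsg fell by 0.61 (adjusted p = 0.048). In TD139 against vehicle, 11 of the 31 were lower, with Gaa and Plbd2 at -0.27 and -0.51, and Sgsh was higher (0.34, adjusted p = 0.040).

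Among 28 other membrane proteins, 3 rose after light, Tmem63a (1.39), Slc15a3 (5.07, from a naïve mean of 0.162 CPM) and Slc11a1 (2.13, the metal transporter of phagosomes), and 7 were lower and 3 higher with TD139. The higher ones were Slc38a9 (0.67), Mfsd8 (0.65) and Lamp3 (1.02), and among the lower ones were Lamp5, Tmem192 and Cd82 at -0.47, -0.80 and -0.86. With length and GC adjusted for, edgeR called 0 higher and 3 lower (4 and 9 at an unadjusted p under 0.05). Cd164 was higher in TD139 than naïve mice (0.58, SE 0.13, adjusted p = 0.043), a call lost under that adjustment. Of 17 other V-ATPase subunits, Tcirg1 rose (1.02, SE 0.22, adjusted p = 0.025), and 6 were lower with TD139, among them Atp6v1e1, Atp6v1d and Atp6v1f at -0.36, -0.28 and -0.68. The 24 genes of enzyme sorting had a median of -0.033 after light. With TD139, 3 of the 24 were higher than in vehicle mice, beside 17.2% of all genes. They were Ap1g1 (0.56), Gga3 (0.42) and Igf2r (0.35), the mannose 6-phosphate receptor. With length and GC adjusted for, edgeR called 2 of the 24 higher and 1 lower. Of 21 genes of mTORC1 and Tfeb control, Flcn fell by 0.65 after light (adjusted p = 0.025) and was higher with TD139 (0.53), among 6 that were higher, while 4 were lower. With length and GC adjusted for, edgeR called 2 higher and 0 lower (5 and 0 at an unadjusted p under 0.05). Of 22 autophagy genes, Gabarap rose by 0.50 and Optn fell by 0.61 after light, and both moved the other way with TD139 (-0.73 and 0.55). In TD139 against vehicle, 4 of the 22 were lower and 3 higher, beside 16.2% and 17.2% of all genes. Among the lower ones were Sqstm1 and Map1lc3a, a cargo receptor and an autophagosome protein (-0.56 and -0.63). Nbr1 and Epg5 were among the higher ones (0.42 and 0.54). With length and GC adjusted for, edgeR called 2 of the 22 lower and 3 higher.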

How the data were processed

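Whole-retina RNA of 9 mice was prepared as stranded mRNA libraries. The authors deposited read counts per gene symbol for 2 runs of each mouse, made on build mm10 per the submitters' processing notes. The study's data statement speaks of normalized counts, but all values held are whole numbers with unequal library totals and were used as raw counts. The study's methods name Illumina BaseSpace RNA Express for quantification. The strand setting is not given in the sources used here, so overlapping genes are uncertain. Runs were summed, giving 26171887 to 30201517 reads on genes per mouse. Rows that name no gene were left out, and reads without a feature made up 16.5% to 22.8%.

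Genes were filtered with filterByExpr, scaled by TMM and tested with edgeR 4.0.16 (R 4.3.3), using robust quasi-likelihood fits to all 9 mice, with Benjamini-Hochberg adjustment over 15196 genes. Standard errors were derived from the fold change and its F statistic. CPM values use the scaled library sizes. Transcript lengths for TPM and the length and GC correction came from a GENCODE annotation that held 98.44% of the symbols. The functions that fit the models were tested on simulated data. Alternatives were DESeq2 1.42.0, other scalings and filters, single runs, a replicate block, the length and GC correction, and leaving out each mouse. Replicate numbers did not pair the mice, with correlations of same-numbered mice from -0.26 to 0.29.

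Members and gene lists were chosen with earlier results of these data known, so no p-value over a list is given. Members were named in full if called in vehicle against naïve or TD139 against vehicle, if among the 2 highest by CPM in their role group, or if transcription factors. Of the other lists, all called genes were named if at most 3, otherwise the 3 with the highest CPM. A gene that this rule names is not reported here.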

Additional observations from a re-analysis of the deposited data

How the results depend on the processing

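In the 9 fits that left out 1 mouse, members higher in vehicle than naïve numbered 0 to 12, members higher in TD139 than vehicle 0 to 1, members lower 8 to 19, members higher in TD139 than naïve 0 to 2 and members lower 0 to 1. With library size alone, the median after light was 0.35 and no member was higher in TD139 than vehicle (0). Under that scaling the median of all genes was 0.094 after light and -0.10 in TD139 against vehicle, beside -0.0018 and -0.016 in the main analysis, and the share of higher among all calls went from 63.0% to 77.6%, from 51.6% to 39.0% and from 53.3% to 65.4% in vehicle against naïve, TD139 against vehicle and TD139 against naïve. With only the groups compared, 2 members were higher in TD139 than vehicle. The single call of TD139 against naïve, Lamp2, was lost (0) with library size alone, only the groups compared, run 1 alone, the replicate block and the length and GC correction with or without the block, and became 2 with DESeq2 or run 2 alone. DESeq2 called 2 members lower there. The median of TD139 against naïve turned to 0.034 with the length and GC correction and 0.031 when the block was added, and Atp6v0d1 in TD139 against vehicle to 0.019 under each. The cause of these changes was not tested, except that leaving out a mouse reduces the samples. The mice share only a replicate number. The block gave 9 members higher after light and 15 lower with TD139. Over all 34 members and 20 alternatives, 52 results were weaker and 4 stronger after light, and 50 weaker and 27 stronger for TD139 against vehicle. Counting error was not separated from the spread between mice, and Laptm5, the member with the fewest reads in naïve mice, had 78 to 98 there.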

Other observations

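Other cell type markers were counted beside the lysosomal genes. The 5 cone markers summed to 1031 to 1675 CPM in naïve, 994 to 1193 in vehicle and 1222 to 1310 in TD139 mice, with overlap between naïve and each other group. Of 6 bipolar cell markers, 3 were higher and 1 lower in TD139 than vehicle mice, and of 7 ganglion and amacrine cell markers 1 was lower. The 6 endothelial and pericyte markers summed to 191 to 270 CPM in naïve and 350 to 491 in vehicle mice. Their sum was 482 in TD139 mouse 1 against 249 in both other TD139 mice. Most of each sum was the single gene Kdr (428, 277 and 300 CPM in vehicle mice, 419 in TD139 mouse 1). Kdr was not called after light (0.93, adjusted p = 0.12), and 0 of the 6 were. In TD139 against vehicle, 1 of the 6 was higher and 1 lower. The part of these cells in the lysosomal genes was not tested.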
